A study of Mus musculus with 6 samples.

Results

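The BCL2 family of apoptosis regulators was followed across DMSO, TGF-β and TGF-β+2APB through 10 genes listed by name, Bcl2, Bcl2l1, Mcl1, Bax, Bak1, Bcl2l11, Bmf, Bbc3, Pmaip1 and Bid, of the 18512 entries in the deposited table of gene counts. All 10 were in the table and all 10 passed the filter on low counts, which kept 13355 entries. The cells were NMuMG, an established epithelial line from mouse mammary gland that undergoes epithelial to mesenchymal transition under TGF-β. The DMSO group received the solvent, the TGF-β group TGF-β at 5 ng/ml, and the TGF-β+2APB group the same TGF-β with 2APB at 50 uM. 2APB is a modulator of store-operated calcium entry. The study describes it as blocking the channels ORAI1 and ORAI2 while raising entry through ORAI3. Treatment lasted 24 h in each group by the study's results, while its methods time 2APB differently, as given under the processing. No group received 2APB alone, so that a change under TGF-β+2APB could not be assigned to 2APB by itself. Each group had 2 replicates, which the study describes as biological, while the labels do not say whether they were separate cultures. The p-values measure the spread between these libraries.

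Proteins of this family decide whether the outer mitochondrial membrane is opened. The guardians Bcl2, Bcl-xL (gene Bcl2l1) and Mcl1 hold back the effectors Bax and Bak, which form the pores, and BH3-only proteins such as Bim (Bcl2l11), Bmf, Puma (Bbc3), Noxa (Pmaip1) and Bid neutralise the guardians or activate the effectors. In mammary epithelium Bim and Bmf are known for the death of cells that lose contact with the matrix, and TGF-β is known to raise Bim in several epithelia.

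The upstream sequences of Bcl2l11, Bcl2l1 and Bbc3 are shown because these were the members called between TGF-β+2APB and TGF-β. Each run is the 250 bases before a RefSeq transcript start on GRCm38.p6, the patch level of build mm10, 5′ to 3′ on the strand of the gene. Capitals mark GTAAACA, the core bound by FOXO factors, CACCTG, the E-box bound by Snai1, and CAGAC, an element bound by SMAD proteins, on either strand. For Bcl2l11 the window was chr2:128125788-128126037 on the plus strand. For Bcl2l1 it was chr2:152831729-152831978 on the minus strand, and for Bbc3 chr7:16309333-16309582 on the plus strand, within the annotated gene but outside its exons. Where RefSeq lists several starts, the most upstream is shown.
Bcl2l11: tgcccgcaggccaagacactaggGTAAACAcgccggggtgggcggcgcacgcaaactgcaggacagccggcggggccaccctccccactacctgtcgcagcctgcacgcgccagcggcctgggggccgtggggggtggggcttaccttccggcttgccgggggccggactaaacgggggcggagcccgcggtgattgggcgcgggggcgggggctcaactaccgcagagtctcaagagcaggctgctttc
Bcl2l1: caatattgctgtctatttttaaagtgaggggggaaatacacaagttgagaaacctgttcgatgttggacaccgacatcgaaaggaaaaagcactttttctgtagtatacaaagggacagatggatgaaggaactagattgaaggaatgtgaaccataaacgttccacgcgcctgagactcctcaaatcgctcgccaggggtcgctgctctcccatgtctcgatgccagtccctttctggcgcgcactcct
Bbc3: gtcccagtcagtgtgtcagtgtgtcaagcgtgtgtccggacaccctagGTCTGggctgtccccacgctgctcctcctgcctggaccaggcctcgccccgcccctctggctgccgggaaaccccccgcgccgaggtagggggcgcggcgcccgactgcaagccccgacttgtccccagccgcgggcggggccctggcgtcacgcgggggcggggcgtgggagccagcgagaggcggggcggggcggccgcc
The Bcl2l11 window held 1 FOXO core, 227 bases before the start. The Bbc3 window held 1 SMAD element in the reverse orientation, 202 bases before its start, and the Bcl2l1 window held none of these motifs. The windows of other starts held other motifs. That of the second Bbc3 start (chr7:16310011-16310260) held 1 FOXO core, 2 E-boxes and 2 SMAD elements, and that of the last held none of the 3. The second Bcl2l11 window held 1 SMAD element, and 1 of 2 further Bcl2l1 windows, both within annotated exons, held 2 SMAD elements. Of 32851 windows of the same length in the RefSeq table, 3.17% held the FOXO core, 17.2% the E-box and 42.2% the SMAD element. The AP-1 element TGANTCA, held by 6.75% of all windows, and the CEBP-ATF element TGATGNAA, held by 3.45%, were in none of the 3 windows. A degenerate NF-κB element, held by 45.8% of all windows and not marked, had 5 matches in the Bcl2l11 window shown and 9 in that of Bbc3, overlapping matches on both strands included. The content of a gene's window thus depends on the start chosen. A match describes letters and was not tested for binding.

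Total counts ran from 71840570 to 79473182 per library, every value was even, and the biological coefficient of variation across all genes was 17.4%. Of 5 epithelial markers, Krt8, Krt18 and Cdh1 were abundant in every library and Epcam had 52 to 158 counts. The keratins Krt8 and Krt18 had higher counts in each treated group than in DMSO. Cdh1 had fewer, from 87706 and more in DMSO to 41622 and fewer in TGF-β+2APB, and Krt19 went from 40792 and more in DMSO to 3488 and fewer in TGF-β+2APB. TGF-β+2APB replicate 2 stood apart by leukocyte markers, 3 of 5 of which were far higher than in replicate 1. Lyz2, a macrophage lysozyme, had 29060 counts in replicate 2 against 158 in replicate 1, Ptprc 752 against 36 and Cd68 628 against 120. The T cell marker Cd3e had 2 counts in TGF-β+2APB replicate 2 and 0 in the other 5 libraries. The summed level of the 5 was 19.8 to 53.2 CPM in DMSO, 5.13 to 13.8 in TGF-β and 4.22 to 393 in TGF-β+2APB. CPM are counts scaled to the library total, which was first multiplied by its TMM scaling factor. Calls of members that involve this group are therefore given with and without replicate 2, as are those of other genes named, and the part of these transcripts in the results was not tested. In bulk RNA, fewer cells that express a gene and less of its RNA per cell cannot be told apart.

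Counts were scaled by TMM, the 3 groups were fitted in 1 edgeR quasi-likelihood model, and a gene was called at a Benjamini-Hochberg FDR of 0.05 or less. Levels of single genes are normalized counts, scaled to the mean library, with SD over 2 replicates, and differences are log2 fold changes with standard errors (SE). Between TGF-β and DMSO 4 of the 10 members were called, 2 higher (Bcl2 and Bak1) and 2 lower (Bbc3 and Pmaip1). Among all genes tested 41.5% were called, 21.8% higher and 19.7% lower, so that the share of members was near the background. Between TGF-β+2APB and DMSO 7 of 10 were called, Bax, Bak1 and Bcl2l11 higher and Bcl2l1, Bbc3, Pmaip1 and Bid lower, beside 52.7% of all genes, 25.6% higher and 27.2% lower. In TGF-β+2APB against TGF-β, the comparison that differs by 2APB, 3 of 10 were called, Bcl2l11 higher and Bcl2l1 and Bbc3 lower, beside 17.5% of all genes, 6.58% higher and 10.9% lower. The median size of the log2 fold change was 0.32, 0.45 and 0.18 over the members in these 3 comparisons and 0.35, 0.44 and 0.23 over all genes tested. The first pair of comparisons shares the DMSO libraries and the last shares libraries with both, so the 3 sets of values are not independent. The calls numbered 3 in each comparison with DMSO, and 2 in the last comparison, without TGF-β+2APB replicate 2. In that fit 36.1%, 40.1% and 9.52% of all genes were called in the 3 comparisons.

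**Figure D1:**
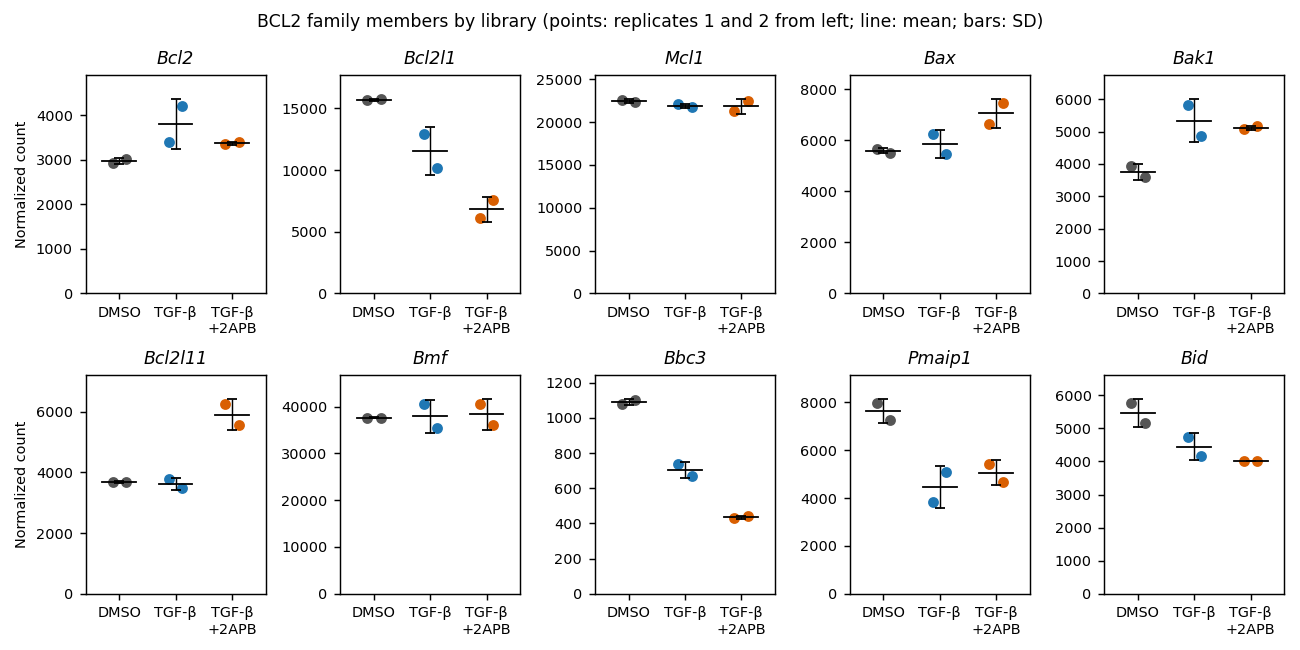
Normalized counts (vertical axes from 0) of the 10 members in DMSO, TGF-β and TGF-β+2APB, with 1 point per library, replicate 1 on the left, lines at the mean and bars for the SD of 2 replicates. Bcl2l1, Bbc3 and Bid step down without overlap from DMSO through TGF-β to TGF-β+2APB. Both steps are called for Bbc3, only the second for Bcl2l1 and neither for Bid. Bcl2l11 is high in TGF-β+2APB, and Mcl1 and Bmf are not called in any comparison.

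Per kilobase of annotated exon, the DMSO libraries held most of Bmf, at 93.6 ± 0.278 RPKM (SD, n = 2), followed by Mcl1 at 86.0 ± 0.692. RPKM are counts scaled to the TMM-adjusted library total and to exon length. Bax at 46.4 ± 0.849, Bcl2l1 at 44.8 ± 0.201 and Pmaip1 at 36.5 ± 2.43 RPKM formed a middle range. Bak1 at 20.4 ± 1.32 and Bid at 20.1 ± 1.56 RPKM did not differ beyond their spread. Bbc3 at 6.71 ± 0.105, Bcl2l11 at 6.0 ± 0.0344 and Bcl2 at 4.26 ± 0.0932 RPKM were the lowest. Mcl1 thus led the guardians by level and Bcl2 was the least abundant of them. In TGF-β+2APB, Bcl2l1 stood at 19.4 ± 2.94 RPKM and Bcl2l11 at 9.63 ± 0.83 RPKM, beside Bax at 58.4 ± 4.74 and Bak1 at 27.8 ± 0.358 RPKM. Bcl2l1 was thus above Bak1 in DMSO and below it in TGF-β+2APB. Mcl1, at 83.6 ± 3.31 RPKM there, stayed the most abundant guardian. These values rest on the union of annotated exons, and an isoform in use with a shorter transcript would raise them.

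Of the guardians, Bcl2l1 was the 1 that was called between TGF-β+2APB and either other group. Bcl2l1, which encodes the death-restraining Bcl-xL and by splicing also the shorter Bcl-xS, lies at chr2:152780668-152831728. Its normalized counts were 15650.3 and 15749.9 in DMSO replicates 1 and 2, 12942 and 10147 in TGF-β, and 6074 and 7533 in TGF-β+2APB. The 3 groups did not overlap, and the 2 TGF-β libraries lay between the others. Bcl2l1 fell by 1.21 on the log2 scale between DMSO and TGF-β+2APB (SE 0.15, FDR = 0.00151), and this was called in all 14 alternatives. It fell by 0.76 between TGF-β and TGF-β+2APB (SE 0.15, FDR = 0.0255), a call kept in 9 of 14 alternatives with FDR values from 0.000109 to 0.119. It was lost without TGF-β+2APB replicate 1 (FDR = 0.119), DMSO replicate 1 (0.0764) or DMSO replicate 2 (0.0775). Without TGF-β+2APB replicate 2 the latter difference was -0.93 (SE 0.19, FDR = 0.0434). The difference of TGF-β from DMSO was -0.44 (SE 0.15) and missed the threshold at an FDR of 0.0647, although DESeq2 gave 0.0177 and the fit without TGF-β replicate 1 gave -0.62 (FDR = 0.0113). Gene counts do not separate the Bcl-xL and Bcl-xS transcripts.

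Bcl2, the founding guardian, lies at chr1:106538178-106714274. Its normalized counts were 2936 and 3028 in DMSO, 3409 and 4207 in TGF-β, and 3354 and 3392 in TGF-β+2APB. Both TGF-β libraries were above both DMSO libraries, and the TGF-β+2APB libraries lay just below the lower TGF-β library. Bcl2 rose under TGF-β by 0.35 on the log2 scale (SE 0.11, FDR = 0.0473), but only 6 of 14 alternatives kept this call, with FDR values from 0.00118 to 0.223. It was lost without DMSO replicate 1 (FDR = 0.223), DMSO replicate 2 (0.174), TGF-β+2APB replicate 1 (0.0672) or TGF-β+2APB replicate 2 (0.0665). The difference was 0.18 (SE 0.11, FDR = 0.223) for TGF-β+2APB against DMSO and -0.17 (SE 0.11, FDR = 0.318) against TGF-β. These values depended on the TGF-β libraries. Without TGF-β replicate 1 the rise under TGF-β was 0.50 (FDR = 0.00118) and the difference of TGF-β+2APB from TGF-β was -0.32 (FDR = 0.0124), and without TGF-β replicate 2 they were 0.19 (FDR = 0.0192) and -0.015 (FDR = 0.813). Either omission also brought TGF-β+2APB against DMSO past the threshold, at FDR values of 0.0106. Of the exon length of Bcl2, 6.09% is shared with the antisense gene D630008O14Rik. The strand setting of the counting was not given in the sources used here, so reads of such a pair could not be separated.

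Mcl1, a guardian with a rapidly turned over protein, lies at chr3:95658788-95663176. Its normalized counts were 22606 and 22350.4 in DMSO, 22086 and 21737 in TGF-β, and 21249 and 22473 in TGF-β+2APB. The 6 libraries spanned a narrow range and the TGF-β+2APB libraries enclosed the TGF-β libraries. The log2 differences were -0.04 for TGF-β (SE 0.07, FDR = 0.683) and -0.04 for TGF-β+2APB against DMSO (SE 0.07, FDR = 0.636). Mcl1 was not called in any of the 14 alternatives of any comparison.

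The effectors Bax and Bak1 were each called higher than DMSO in TGF-β+2APB, and Bak1 also in TGF-β. Bak1 (chr17:27019810-27029009), whose protein resides in the mitochondrial membrane, had 3927 and 3582 normalized counts in DMSO, 5812 and 4861 in TGF-β, and 5067 and 5160.3 in TGF-β+2APB. All 4 libraries with TGF-β were above both DMSO libraries, and the TGF-β+2APB libraries lay between the TGF-β libraries. Bak1 rose by 0.51 under TGF-β (SE 0.11, FDR = 0.0134, 1.42-fold), called in 12 of 14 alternatives but not without DMSO replicate 1 (FDR = 0.0616) or 2 (0.108). It rose by 0.45 under TGF-β+2APB against DMSO (SE 0.11, FDR = 0.0162, 1.36-fold), called in 10 of 14 but not without DMSO replicate 1 (FDR = 0.0596), DMSO replicate 2 (0.120) or TGF-β+2APB replicate 1 (0.0769). TGF-β+2APB differed from TGF-β by -0.06 (SE 0.11, FDR = 0.725). The difference from DMSO was 0.45 (SE 0.16, FDR = 0.0727) without TGF-β+2APB replicate 2. Of the Bak1 exon length 25.5% is shared with Ggnbp1 on the opposite strand, which had 52 to 96 counts per library.

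Bax (chr7:45461697-45466898), which moves from the cytosol to mitochondria when activated, had 5659.9 and 5515 normalized counts in DMSO, 6237 and 5450.4 in TGF-β, and 6640.1 and 7448 in TGF-β+2APB. Both TGF-β+2APB libraries were above the other 4, while the TGF-β libraries enclosed those of DMSO. Bax rose by 0.33 between DMSO and TGF-β+2APB (SE 0.10, FDR = 0.0347, 1.26-fold), which 8 of 14 alternatives kept with FDR values from 0.00403 to 0.187. It was lost without DMSO replicate 1 (FDR = 0.144), DMSO replicate 2 (0.178) or TGF-β+2APB replicate 1 (0.0725). Leaving out TGF-β+2APB replicate 2 gave 0.27 (SE 0.14, FDR = 0.187). Against TGF-β it was 0.27 (SE 0.10, FDR = 0.126) in edgeR, with an FDR of 0.0355 in DESeq2 and of 0.0263 without TGF-β replicate 1 (0.37). Neither effector was called by edgeR in the latter comparison, Bax being the 1 of the 2 with an unadjusted p under 0.05. Of the Bax exon length 12.2% is shared with Gm45808 on the same strand.

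**Figure D2:**
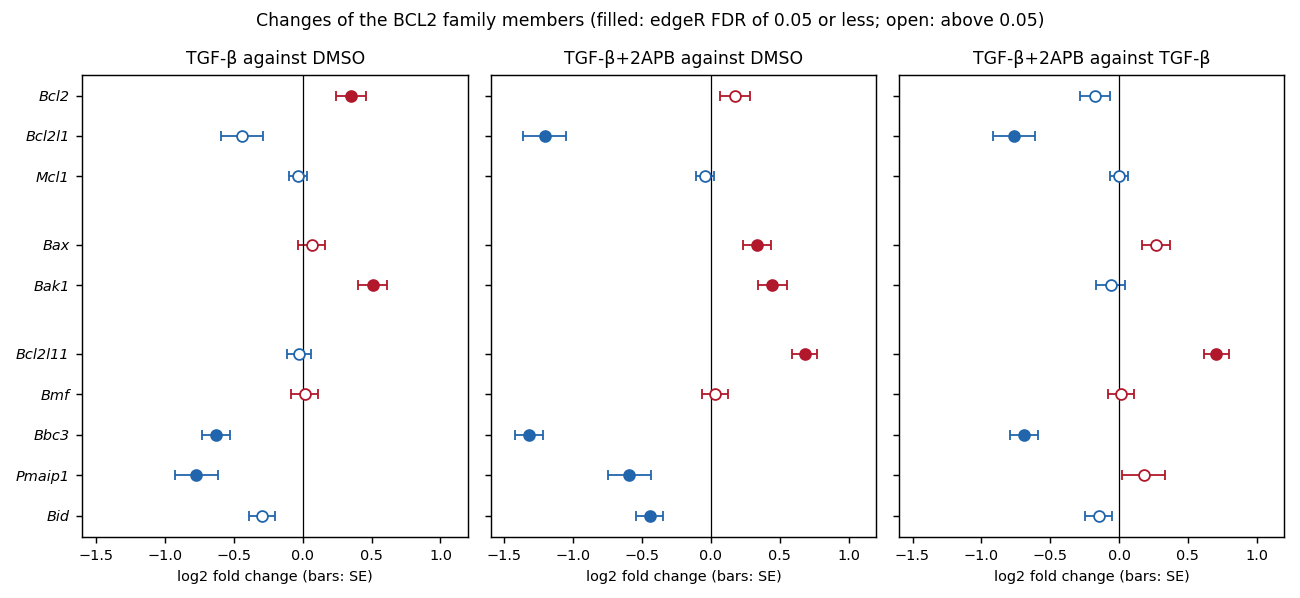
Log2 fold changes of the 10 members (horizontal axes, bars for SE) in the 3 comparisons, grouped as guardians, effectors and BH3-only genes from top to bottom, with filled points at an edgeR FDR of 0.05 or less and open points above it. In the right panel only Bcl2l11 is filled above 0, and Bcl2l1 and Bbc3 are filled below 0.

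The BH3-only genes moved in different directions. Bcl2l11 (chr2:128126038-128162547), which encodes Bim, had 3701 and 3671 normalized counts in DMSO, 3771 and 3474 in TGF-β, and 6272 and 5551 in TGF-β+2APB. The TGF-β libraries enclosed the DMSO libraries, and both TGF-β+2APB libraries were far above all 4. Under TGF-β alone the difference was -0.03 (SE 0.09, FDR = 0.843), with no call in any of the 14 alternatives. Bcl2l11 rose by 0.71 between TGF-β and TGF-β+2APB (SE 0.09, FDR = 0.00786, 1.63-fold), which 13 of 14 alternatives kept, the exception being the fit without TGF-β+2APB replicate 1 (0.59, FDR = 0.0530). It rose by 0.68 between DMSO and TGF-β+2APB (SE 0.09, FDR = 0.00162, 1.60-fold), which all 14 kept. Without TGF-β+2APB replicate 2 the rise over TGF-β was 0.79 (SE 0.12, FDR = 0.0208), so it was as large without that library. The size of this change exceeded that of 83.3% of all genes tested in the comparison with TGF-β.

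Bbc3 (chr7:16308393-16318205), which encodes Puma, a target of p53 that binds all guardians, was the least counted of the members. Its normalized counts were 1078 and 1102 in DMSO, 737 and 671 in TGF-β, and 429.9 and 442 in TGF-β+2APB. The 3 groups were apart from each other by more than their replicates, with TGF-β in the middle. Bbc3 fell by 0.63 under TGF-β (SE 0.10, FDR = 0.00472), called in all alternatives but the fit without DMSO replicate 2 (FDR = 0.0514). It fell by 1.32 between DMSO and TGF-β+2APB (SE 0.10, FDR = 0.000235), called in all 14. The fall of 0.69 between TGF-β and TGF-β+2APB was called (log2 fold change -0.69, SE 0.10, FDR = 0.0114), and 9 of 14 alternatives kept it. It was lost without TGF-β+2APB replicate 1 (FDR = 0.0717), DMSO replicate 1 (0.0525) or DMSO replicate 2 (0.0534). Without TGF-β+2APB replicate 2 this difference was -0.71 (SE 0.16) and missed the threshold at an FDR of 0.0561.

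Pmaip1 on chromosome 18, which encodes the Mcl1-binding Noxa, was lower in both treated groups. It had 7988 and 7270.3 normalized counts in DMSO, 3832 and 5095 in TGF-β, and 5422 and 4688 in TGF-β+2APB. All 4 libraries with TGF-β were below both DMSO libraries, and the ranges of the treated groups overlapped. Pmaip1 fell by 0.77 under TGF-β (SE 0.16, FDR = 0.0116), lost only without DMSO replicate 1 (FDR = 0.0796). It fell by 0.59 under TGF-β+2APB against DMSO (SE 0.16, FDR = 0.0224), kept in 11 of 14 alternatives but not without DMSO replicate 1 (FDR = 0.121) or 2 (0.0693). The latter was -0.47 (SE 0.19, FDR = 0.102) without TGF-β+2APB replicate 2. Between the treated groups the difference was 0.18 (SE 0.16, FDR = 0.470), and 0.40 (FDR = 0.0439) without TGF-β replicate 2.

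Bid (chr6:120891930-120916853), which caspase-8 cleaves to link death receptors to mitochondria, had 5762 and 5164 normalized counts in DMSO, 4740.0 and 4163 in TGF-β, and 4019 and 4009 in TGF-β+2APB. The groups did not overlap and the order was DMSO, TGF-β, TGF-β+2APB. Bid fell by 0.44 between DMSO and TGF-β+2APB (SE 0.10, FDR = 0.0110), called in 11 of 14 alternatives but not without DMSO replicate 1 (FDR = 0.0916) or TGF-β+2APB replicate 1 (0.0679). The value without TGF-β+2APB replicate 2 was -0.42 (SE 0.15, FDR = 0.0779). The difference under TGF-β, -0.30 (SE 0.10), missed the threshold at an FDR of 0.0547, with 0.0135 in DESeq2 and 0.0118 without TGF-β replicate 1 (-0.39). Of the Bid exon length 17.7% is shared with Bcl2l13 on the opposite strand, which had 5476 to 7146 counts per library and did not pass the test in any comparison.

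Bmf (chr2:118528757-118549687), which encodes a BH3-only protein tied to the cytoskeleton, was the most counted member. It had 37525 and 37683 normalized counts in DMSO, 40497 and 35470.2 in TGF-β, and 40674 and 36065 in TGF-β+2APB. Replicate 1 was above replicate 2 in both treated groups, by more than either group's mean differed from DMSO. The log2 differences were 0.01 (SE 0.10, FDR = 0.921) for TGF-β, 0.03 (SE 0.10, FDR = 0.820) for TGF-β+2APB against DMSO and 0.01 (SE 0.10, FDR = 0.933) against TGF-β. Bmf was not called in any of the 14 alternatives of any comparison.

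Ratios of counts within a library do not depend on scaling between libraries, and those given here were chosen after the values were seen. The Bcl2l1 count divided by the Bcl2l11 count was 4.23 and 4.29 in DMSO, 3.43 and 2.92 in TGF-β, and 0.968 and 1.36 in TGF-β+2APB. Both TGF-β+2APB libraries were thus below every other library. The Mcl1 count divided by the Bcl2l11 count was 6.11 and 6.09 in DMSO, 5.86 and 6.26 in TGF-β, and 3.39 and 4.05 in TGF-β+2APB. The Bax count divided by the Bcl2l1 count was 0.362 and 0.350 in DMSO, 0.482 and 0.537 in TGF-β, and 1.09 and 0.989 in TGF-β+2APB. These ratios are not corrected for gene length and describe the libraries without a test. They set guardians against Bcl2l11 and Bax, which were called higher in TGF-β+2APB than in DMSO. The BH3-only genes Bbc3, Pmaip1 and Bid, called lower there, entered no ratio. The ratios therefore do not describe the balance of the family.

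**Figure D3:**
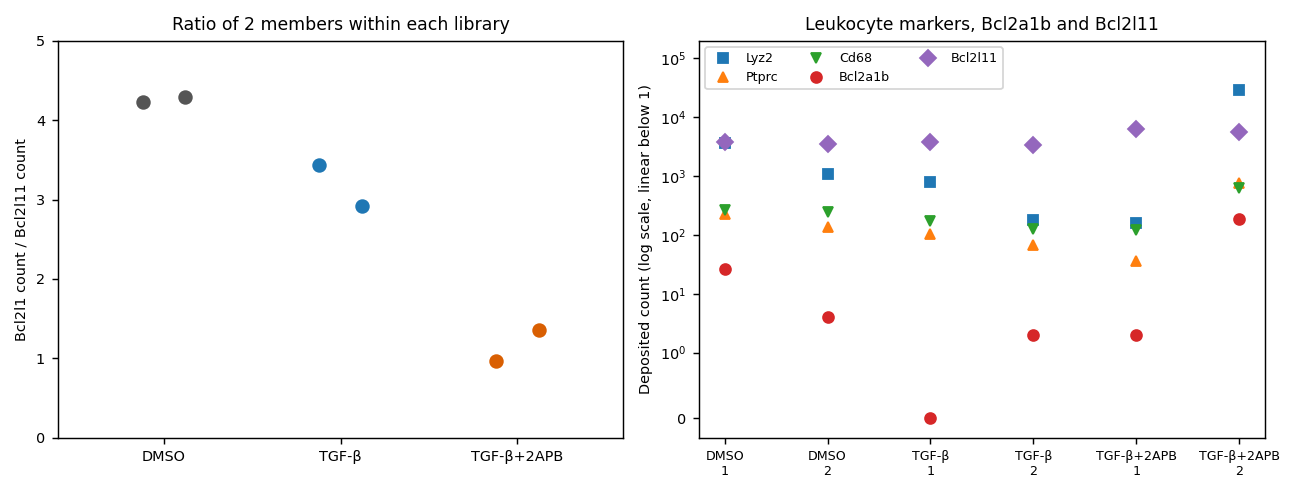
Left, the Bcl2l1 count divided by the Bcl2l11 count (vertical axis from 0), with 1 point per library, at 4.23 and 4.29 in DMSO and at 0.968 and 1.36 in TGF-β+2APB. Right, deposited counts (log axis, linear below 1) of the leukocyte markers Lyz2, Ptprc and Cd68, of Bcl2a1b and of Bcl2l11 in each library. For Lyz2, Ptprc, Cd68 and Bcl2a1b, TGF-β+2APB replicate 2 is above every other library. For Bcl2l11 it is below replicate 1 of its group, and both are above the DMSO and TGF-β libraries.

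Of 16 other BCL2 family genes in the table, 10 were tested and 6 (Bcl2a1a, Bcl2a1c, Bcl2a1d, Bcl2l10, Hrk and Bcl2l14) had too few counts. Under TGF-β 3 rose and 2 fell, and the same numbers held between DMSO and TGF-β+2APB. These 5 of 10 stood near the 41.5% and 52.7% of all genes called. Bok, an effector relative of Bax and Bak, had 743 and 827 normalized counts in DMSO, 2501 and 2238 in TGF-β, and 3368 and 2977 in TGF-β+2APB. It rose by 1.59 under TGF-β (SE 0.11, FDR = 0.000283) and by 2.01 between DMSO and TGF-β+2APB (SE 0.11, FDR = 8.42e-05). All 4 TGF-β-treated libraries were above both DMSO libraries. Its rise of 0.42 over TGF-β (SE 0.11, FDR = 0.0487) was kept in 5 of 14 alternatives. It was lost without DMSO replicate 1 (FDR = 0.110), DMSO replicate 2 (0.111), TGF-β replicate 2 (0.0544), TGF-β+2APB replicate 1 (0.353) or TGF-β+2APB replicate 2 (0.113). Bik, a BH3-only protein of the endoplasmic reticulum, had deposited counts of 8 and 4 in DMSO, 34 and 26 in TGF-β, and 110 and 98 in TGF-β+2APB. It rose by 2.30 (SE 0.42, FDR = 0.00763) under TGF-β, by 4.07 (SE 0.42, FDR = 0.000669) under TGF-β+2APB against DMSO and by 1.77 (SE 0.36, FDR = 0.0262) over TGF-β, the last in 8 of 13 alternatives. The first was lost without DMSO replicate 2 (FDR = 0.0547) and the last without DMSO replicate 1 (0.0571), DMSO replicate 2 (0.0575) or TGF-β+2APB replicate 1 (0.0816). Without TGF-β+2APB replicate 2 Bik differed by 4.17 from DMSO (FDR = 0.00158) and by 1.85 from TGF-β (FDR = 0.0469), and Bok by 2.12 from DMSO (FDR = 0.000369). The low counts of Bik limit the precision of its folds.

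Bcl2l15, a less studied family member, had 15.7 and 16.5 normalized counts in DMSO, 37.0 and 64.4 in TGF-β, and 59.4 and 65.1 in TGF-β+2APB. It rose by 1.64 under TGF-β (SE 0.39, FDR = 0.0196) and by 1.94 between DMSO and TGF-β+2APB (SE 0.39, FDR = 0.00816). Neither rise was called without DMSO replicate 1 (FDR = 0.121 and 0.0626) or 2 (0.107 and 0.0575), while without TGF-β+2APB replicate 2 the second was 1.89 (FDR = 0.0244). The mitophagy receptors Bnip3 and Bnip3l went the other way. Bnip3 fell by 0.88 under TGF-β (SE 0.09, FDR = 0.00108) and by 0.33 between DMSO and TGF-β+2APB (SE 0.09, FDR = 0.0232), and was 0.54 higher in TGF-β+2APB than in TGF-β (SE 0.09, FDR = 0.0159). Its normalized counts were 2572 and 2338 in DMSO, 1355 and 1323 in TGF-β, and 2038 and 1856 in TGF-β+2APB, so that the TGF-β+2APB libraries lay between the other groups. Leaving out either DMSO or either TGF-β+2APB library ended its calls for TGF-β+2APB, with FDR values of 0.0655 to 0.208 against DMSO and 0.0506 to 0.130 against TGF-β. Bnip3l fell by 0.45 under TGF-β (SE 0.12, FDR = 0.0289) and by 0.36 between DMSO and TGF-β+2APB (SE 0.12, FDR = 0.0452), both lost without any 1 of the DMSO or TGF-β+2APB libraries, at FDR values of 0.0553 to 0.159 and 0.131 to 0.198. Bcl2a1b, a guardian gene of blood cells with near-identical copies, had 188 counts in TGF-β+2APB replicate 2 and 0 to 26 in the other 5 libraries, together with Lyz2. EdgeR with all libraries did not call it in any comparison, whereas DESeq2 did for TGF-β+2APB against TGF-β (FDR = 0.0114). With all libraries, 3 of the 10 other family genes (Bok, Bik and Bnip3) were called between TGF-β+2APB and TGF-β, beside 17.5% of all genes. Without TGF-β+2APB replicate 2 their log2 fold changes were 0.50, 1.85 and 0.60.

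Of 51 other apoptosis genes in the table, 48 were tested, and Fasl, Trp63 and Trp73 were not. Under TGF-β 7 rose and 14 fell, between DMSO and TGF-β+2APB 9 rose and 23 fell, and from TGF-β to TGF-β+2APB 1 rose and 9 fell. These were 43.8%, 66.7% and 20.8% of the genes tested, beside 41.5%, 52.7% and 17.5% of all genes. Of all genes, 21.8%, 25.6% and 6.58% were called higher and 19.7%, 27.2% and 10.9% lower. The median log2 fold change of the list was -0.15, -0.30 and -0.09 in these comparisons, beside -0.01, -0.00 and -0.00 over all genes tested. Without TGF-β+2APB replicate 2, fewer genes of the list and fewer of all genes were called in the last comparison. Among 24 genes of the caspase machinery, 4 rose and 5 fell under TGF-β, 5 rose and 13 fell between DMSO and TGF-β+2APB, and 5 fell in TGF-β+2APB relative to TGF-β. These were 37.5%, 75% and 20.8% of the 24. Leaving out TGF-β+2APB replicate 2 lowered the share of the 24 called between DMSO and TGF-β+2APB, and that of all genes as well. Among 8 tested genes of the death receptor arm, 2 fell and 1 rose under TGF-β, 3 fell between DMSO and TGF-β+2APB, and 2 fell in TGF-β+2APB relative to TGF-β, or 37.5%, 37.5% and 25% of the 8. With TGF-β+2APB replicate 2 left out, 3 genes fell from DMSO, but neither fall relative to TGF-β was called. These 2 genes, Tnfrsf1a and Tnfrsf10b, were named after their values were seen. Tnfrsf1a, a TNF receptor, then had an FDR of 0.0659 and Tnfrsf10b, the TRAIL receptor, of 0.153, and both were also lost without TGF-β+2APB replicate 1 (0.137 and 0.170), DMSO replicate 1 (0.0800 and 0.0882) or DMSO replicate 2 (0.0810 and 0.0887).

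The genes with the largest called falls included Fas, the receptor of Fas ligand, which had 1278 and 1259 normalized counts in DMSO, 355 and 253 in TGF-β, and 174 and 253 in TGF-β+2APB. Fas fell by 2.06 under TGF-β (SE 0.24, FDR = 0.00160) and by 2.57 between DMSO and TGF-β+2APB (SE 0.24, FDR = 0.000497). Egr1, an immediate early transcription factor, fell by 2.78 (SE 0.32, FDR = 0.00163) and fell by 3.66 (SE 0.34, FDR = 0.000450) in the same comparisons. Casp12, a caspase of the endoplasmic reticulum, fell by 1.22 (SE 0.26, FDR = 0.0141), fell by 2.79 (SE 0.28, FDR = 0.000616) and fell by 1.56 between TGF-β and TGF-β+2APB (SE 0.27, FDR = 0.0176). Casp12 lost its call under TGF-β without DMSO replicate 1 (FDR = 0.0859) or 2 (0.0747), and the last call without either of these (0.0600 and 0.0604) or TGF-β+2APB replicate 1 (0.0634). In that last comparison Birc5, the mitotic protein survivin, fell by 1.48 (SE 0.10, FDR = 0.00307) and Stat3, a transcription factor known to drive Bcl2l1, fell by 1.12 (SE 0.12, FDR = 0.00590). Whether Stat3 acts on Bcl2l1 in these cells was not tested. Birc5 had 1595 and 1753 normalized counts in DMSO, 1856 and 1688 in TGF-β, and 618 and 655 in TGF-β+2APB, while Stat3 had 18852 and 18148, 12735 and 10492, and 4946 and 5711. Both TGF-β+2APB libraries were the lowest for either gene. The differences from DMSO without TGF-β+2APB replicate 2 were -2.84 for Fas (FDR = 0.00101), -3.61 for Egr1 (FDR = 0.00290) and -3.00 for Casp12 (FDR = 0.00156). Those from TGF-β were then -1.80 for Casp12 (FDR = 0.0298), -1.52 for Birc5 (FDR = 0.00941) and -1.24 for Stat3 (FDR = 0.0169).

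Rises in this list were smaller. Cycs, which encodes the cytochrome c that mitochondria release, rose by 0.57 under TGF-β (SE 0.08, FDR = 0.00271) and by 0.74 between DMSO and TGF-β+2APB (SE 0.08, FDR = 0.000697). Htra2, a mitochondrial protease, rose by 0.57 (SE 0.10, FDR = 0.00656) and by 0.65 (SE 0.10, FDR = 0.00296), the first lost without DMSO replicate 2 (FDR = 0.0635). E2f1, a cell cycle transcription factor, rose by 0.73 under TGF-β (SE 0.09, FDR = 0.00199), and Casp2, an initiator caspase, by 0.62 between DMSO and TGF-β+2APB (SE 0.08, FDR = 0.00126). In the fit lacking TGF-β+2APB replicate 2, Cycs, Htra2 and Casp2 were 0.78 (FDR = 0.00474), 0.70 (FDR = 0.0169) and 0.66 (FDR = 0.0101) above DMSO in TGF-β+2APB. Foxo1, a FOXO factor, was the 1 gene of the list that rose between TGF-β and TGF-β+2APB, by 0.55 (SE 0.07, FDR = 0.00869), a call lost without TGF-β+2APB replicate 1 (FDR = 0.0775) or 2 (0.0519). It had 6334 and 6299 normalized counts in DMSO, 4629 and 4298 in TGF-β, and 6577 and 6489 in TGF-β+2APB. It fell by 0.50 under TGF-β (SE 0.07, FDR = 0.00345), and TGF-β+2APB differed from DMSO by 0.05 (SE 0.07, FDR = 0.603). Foxo3 and Foxo4, named after their values were seen, fell by 0.79 (SE 0.10, FDR = 0.00188) and 1.10 (SE 0.09, FDR = 0.000575) under TGF-β and differed by -0.01 (SE 0.10, FDR = 0.962) and -0.04 (SE 0.09, FDR = 0.821) between TGF-β+2APB and TGF-β. Whether any FOXO factor acts on the FOXO cores in the first Bcl2l11 and second Bbc3 window was not tested.

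**Figure D4:**
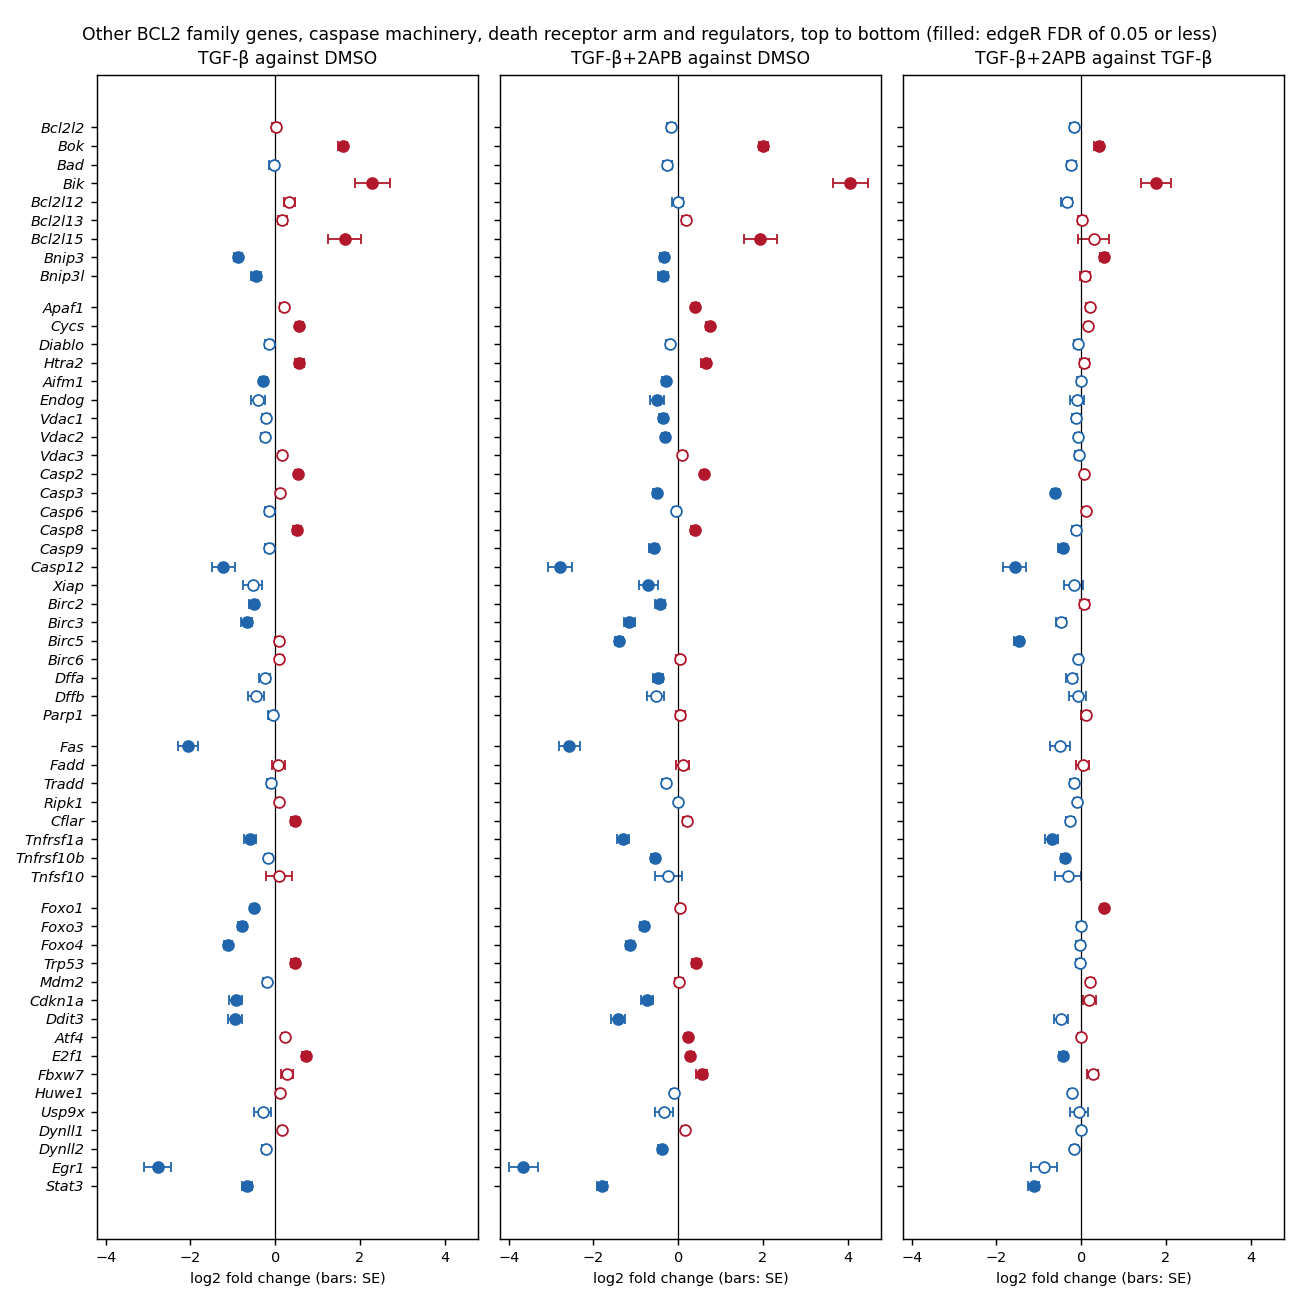
Log2 fold changes (horizontal axes, bars for SE) of other BCL2 family genes and other apoptosis genes in the 3 comparisons, from top to bottom the family, the caspase machinery, the death receptor arm and the regulators, with filled points at an edgeR FDR of 0.05 or less. Bcl2a1b, nearly absent from most libraries, is left out. Bik and Bok are filled above 0 in each panel, and Casp12 and Stat3 are filled below 0 in each.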

How the data were processed

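Poly(A) RNA of NMuMG cells was sequenced as single-end reads. The authors counted reads on genes with featureCounts and deposited raw counts without normalization. The submitters' processing notes name FastQC 0.11.2, TopHat2 2.0.13, DESeq2 1.6.1 and build mm10, whereas the study's methods name hg19. The annotation, strand setting and treatment of multiply aligned reads were not given in the sources used here. Timing also differs between its results (24 h with TGF-β) and methods (2APB for 24 h before TGF-β). All deposited values were even, and halved counts were tried as an alternative. The 25 names a spreadsheet had turned into dates were kept in the fit and not named.

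The fit used edgeR 4.0.16 under R 4.3.3 (TMM, mean normalized count of at least 20, quasi-likelihood F-test, Benjamini-Hochberg FDR over 13355 genes, 3 residual degrees of freedom). Each SE was derived from the fitted difference and its F statistic (difference over the root of F). The 14 alternatives were DESeq2 1.42.0, RLE and library size scaling, no count filter, at least 10 counts in every library, the 4 libraries compared alone, the replicate number as a block, halved counts and each of 6 libraries left out. The fit was tested on simulated data. Exon lengths and positions came from GENCODE M21 on GRCm38. Upstream windows were found in the RefSeq table for 9 of the 10 members, all but Pmaip1. Plots were drawn with matplotlib 3.10.9 under Python 3.11.15.

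The members, gene lists and motifs were chosen with earlier results of these data known. All members are named. Of the other family genes those called in at least 1 comparison are named, and of the other apoptosis genes the 3 largest called changes in each direction and comparison. Genes outside this rule are said to be so. Results for 2 genes of the lists are not reported here.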

Additional observations from a re-analysis of the deposited data

How the results depend on the processing

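Of 420 member values recomputed over the 14 alternatives, 352 kept their direction and side of the threshold, 39 lost a call, 14 gained one and 15 changed sign. All 15 belonged to differences that were not called, and none exceeded 0.11 in log2 size. Scaling by library size gave Bmf -0.016, -0.035 and -0.019 in the 3 comparisons (TGF-β against DMSO, TGF-β+2APB against DMSO, TGF-β+2APB against TGF-β), and Mcl1 in the last was 0.014 with RLE scaling and 0.018 with DESeq2. With 1 library left out at a time, values that changed sign ranged as follows. Against DMSO under TGF-β, Bax ranged from -0.030 to 0.16, Bcl2l11 from -0.079 to 0.033 and Bmf from -0.078 to 0.11. Bmf ranged from -0.066 to 0.13 between DMSO and TGF-β+2APB. Between TGF-β and TGF-β+2APB, Mcl1 ranged from -0.047 to 0.0095, Bak1 from -0.18 to 0.075, Bmf from -0.11 to 0.12 and Pmaip1 from -0.0088 to 0.40. In these fits the remaining replicate is assumed to vary like the other groups, and the called members numbered 1 to 6, 3 to 8 and 0 to 5 in the 3 comparisons, against 4, 7 and 3 with all libraries. The share of all genes called in the same fits ranged as widely, from 20.7% to 57%, 32.8% to 67.2% and 6.26% to 40.4%. The 0 arose without TGF-β+2APB replicate 1, where edgeR gave 3 members an unadjusted p under 0.05, and the 1 arose without either DMSO library. The other family genes called numbered 2 to 6, 2 to 7 and 0 to 4, against 5, 5 and 3, and the other apoptosis genes 11 to 29, 17 to 38 and 3 to 23, against 21, 32 and 10. With only the 4 libraries compared, TGF-β+2APB against TGF-β gave 1 member, 0 other family genes and 5 other apoptosis genes. Of all genes 6.54% were then called, against 17.5% with all libraries. In the same setting TGF-β against DMSO gave 3 other family genes, beside 36.1% of all genes. DESeq2 called 6, 7 and 4 members, beside 47.4%, 57.3% and 27.7% of all genes. For TGF-β+2APB against TGF-β it called 3696 of all genes where edgeR called 2335.

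Same-numbered replicates did not deviate together (correlations of replicate differences across 13355 genes of 0.15, -0.46 and -0.25), so the numbers are not a pairing known from the design. With the replicate block, 3, 6 and 2 members were called, beside 35.5%, 47.6% and 10.1% of all genes. For TGF-β+2APB against TGF-β the block called 1 other family gene and 6 other apoptosis genes, with 1343 calls among all genes. The replicate block gave an FDR of 0.0574 for Bcl2 under TGF-β, 0.0679 for Bax in TGF-β+2APB against DMSO and 0.0656 for Bcl2l1 in TGF-β+2APB against TGF-β. A block with the TGF-β+2APB numbers exchanged, added after the data were seen, called 6, 7 and 3 members and 5706, 7232 and 2465 genes. With 2 replicates per group, an uncalled difference is not shown to be absent. Every member had at least 434 counts in each library. Isoforms, protein levels and cell death were not analysed here.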
